A study of Rattus norvegicus with 8 samples.

Results

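Complement components, regulators and receptors were followed as a set of 33 listed genes in rat kidney RNA. The list runs along the cascade and holds 11 genes of the classical and lectin branches, 4 of C3 and the alternative branch, 7 of the terminal pathway, 9 regulators and 2 receptors. The arrays carried 35 probes for 29 of the 33 genes, and 23 genes passed the filter on low signal and were tested among 21416 genes and unnamed transcripts in all. The 4 genes C4b, C5, C7 and C8g had no probe that could be matched to them, and 6 more (C4bpa, C8a, C9, Cd46, Mbl2 and Vtn) had a probe that did not pass the filter. All samples were kidneys of male SD rats (Sprague-Dawley, an outbred laboratory strain) aged 10 weeks. The APL group held 4 samples from rats given 150 mg/kg of a compound labelled APL for 4 weeks. APL is read here as allopurinol, a xanthine oxidase inhibitor, which the series title names as the agent that produces the fibrosis model. The Control group held 4 samples from rats given the vehicle, 0.5% methylcellulose, over the same 4 weeks. The title speaks of renal tubules and the tissue label of kidney. The labels do not state that replicates were separate animals, so the p-values measure the spread between these samples, which may be partly technical.

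Complement is a set of proteins that mark and lyse targets in a chain of cleavage steps. The classical branch starts when C1q binds antibody or other patterns, the lectin branch starts when mannose-binding lectins bind sugars, and the alternative branch amplifies deposited C3. All branches meet at C3, whose cleavage leads to the C5 to C9 membrane attack complex, and host cells are shielded by soluble and membrane-bound regulators. Most circulating complement proteins are made in the liver, and kidney cells and macrophages can also make several of them.

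Signals are given relative to the 75th percentile of each array, so that a relative signal of 1 equals that percentile. They are comparable between samples for 1 probe and not between genes. That percentile was 454.9 ± 53.0 intensity units on the APL arrays and 291.2 ± 18.0 on the Control arrays (SD, n = 4 each, exact two-sided permutation p = 0.0286, the smallest possible), a ratio of 1.56. The share of probes well above background was 80.8% ± 0.839 on APL arrays and 75% ± 1.53 on Control arrays (SD, n = 4 each). Each of the 2 slides carried 2 arrays of each group, with the APL samples always at positions 3 and 4 and the Control samples at positions 1 and 2, so position and treatment cannot be told apart. The 10 listed kidney markers all passed the signal filter. Of these, 3 were higher with APL (Pax8, Cdh16 and Aqp2), 2 were lower (Slc34a1 and Umod) and the rest were not called. Their summed relative signal was 42.6 to 64.3 in the APL group and 137.5 to 176.6 in the Control group. Such a sum weighs bright probes most. Slc34a1 gave 2.29 to 8.47 with APL and 73.5 to 99.3 in Control, and Umod gave 0.24 to 12.0 and 31.1 to 48.3. Across bulk kidney RNA, fewer cells of a type and less RNA per cell cannot be told apart. The median log2 difference of all tested genes was -0.03 with the scaling used, and 0.61 with no scaling between arrays, so directions below are relative to the rest of each array.

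Of the 23 tested complement genes, 10 were higher with APL, 1 was lower and 12 were not called by limma at an adjusted p under 0.05. These calls covered 47.8% of the tested members, beside 23.5% of all genes tested. The higher calls covered 43.5% of members beside 11.9% of all genes, and the lower call 4.35% beside 11.5%. The members' median log2 difference was 1.63, beside -0.03 over all genes tested, and it was 0.97 without Control replicate 4, 0.86 under normexp scaled to the 75th percentile, and 0.52 under normexp followed by quantile scaling. Detection on the 4 APL arrays alone was enough to pass the filter. With detection required on all 8 arrays, the called C3, Cfd and Cfi and the uncalled C5ar1, Cd55 and C4bpb were not tested. Under that setting 7 members were higher, beside 1988 of all 17536 genes then tested. The shares above therefore describe the tested members and not all 33. The 10 higher genes were Clu, Cfi, C3, Cfd, C2, C6, C4a, C1qc, C1qb and Cfb, and the lower gene was Cd59. In the 11 called members and no other tested member, the APL and Control values did not overlap, beside 29.9% of all genes. All APL values lay above all Control values in the 10 higher genes, beside 14% of all genes, and below them in Cd59, beside 15.9% of all genes. Because these values did not overlap, the sign of the 11 was bound to be the same on slide 1 and slide 2.

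**Figure D1:**
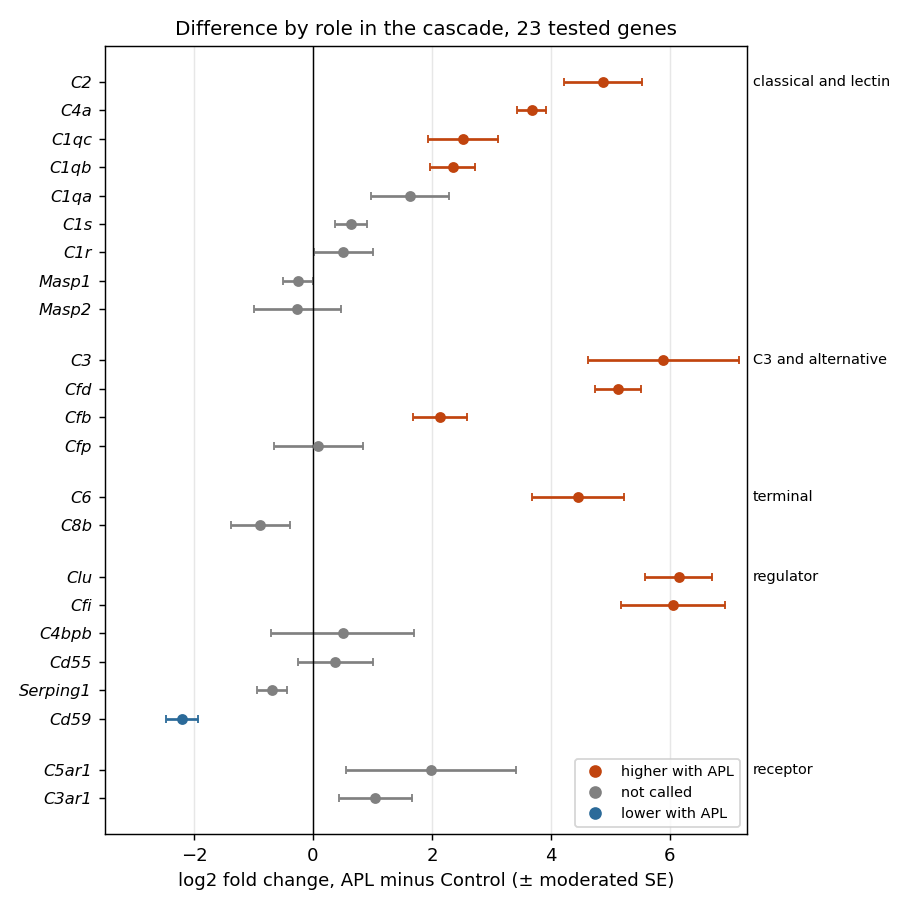
Log2 difference of APL over Control (x axis) for the 23 tested complement genes, ordered by place in the cascade, with bars of 1 moderated standard error (n = 4 arrays per group). The 10 genes called higher lie between 2.14 (Cfb) and 6.15 (Clu), and Cd59 lies at -2.21.

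In the classical branch, 4 of the 9 tested classical and lectin genes were higher with APL and none was lower. The higher share was 44.4%, beside 11.9% of all genes tested. C4a encodes a form of C4, which the C1 protease splits so that it attaches to nearby surfaces. Its relative signal was 20.3, 28.6, 30.8 and 18.0 in APL replicates 1 to 4, against 1.76, 1.61, 1.97 and 2.16 in Control replicates 1 to 4. All 4 APL values lay far above the Control values, and the replicates of each group were close together. The log2 difference was 3.67 ± 0.24 (SE, n = 4 each, limma adjusted p = 5.5e-05). C4b is a closely related copy without a matched probe, and whether its transcript adds to the C4a signal was not tested. C2 encodes the protease that joins C4b in the classical C3 convertase. It had relative signals of 3.26, 1.34, 1.14 and 1.26 in the APL samples, against 0.0444, 0.0317, 0.0294 and 0.204 in the Control samples. APL replicate 1 and Control replicate 4 were the highest of their groups, and the groups stayed apart. The log2 difference was 4.88 ± 0.66 (limma adjusted p = 0.00161), and a second C2 probe gave 5.67.

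The 3 chains of C1q, the recognition molecule of the classical branch, come from adjacent genes on chromosome 5 and differed in their calls. C1qb measured 3.72, 3.73, 5.87 and 4.37 with APL, against 0.624, 0.922, 1.69 and 0.545 in Control. Its log2 difference was 2.35 ± 0.38 (limma adjusted p = 0.00366). C1qc measured 1.5, 0.726, 0.597 and 1.15 with APL, against 0.342, 0.306, 0.0965 and 0.0686 in Control. The highest Control value was close to the lowest APL value, and the log2 difference was 2.52 ± 0.59 (limma adjusted p = 0.0192). That call was lost without APL replicate 4 (limma adjusted p = 0.0555). C1qa measured 3.87, 7.50, 6.86 and 7.11 with APL, against 3.12, 0.694, 5.94 and 1.2 in Control. Control replicates 1 and 3 lay near the APL values, so the groups overlapped, and the log2 difference of 1.63 ± 0.65 was not called (limma adjusted p = 0.108). Without Control replicate 3 it was called, at 2.16 (limma adjusted p = 0.0301). C1r and C1s, the proteases that C1q activates, come from adjacent genes on chromosome 4, and neither was called. C1r measured 1.55, 0.564, 0.929 and 1.12 with APL, against 0.624, 1.57, 0.633 and 0.355 in Control (log2 difference 0.51 ± 0.49, limma adjusted p = 0.481). C1s measured 0.298, 0.439, 0.454 and 0.476 with APL, against 0.375, 0.192, 0.281 and 0.236 in Control (0.64 ± 0.27, limma adjusted p = 0.127). With no scaling between arrays, C1qa and C1s were called higher (limma adjusted p = 0.0286 and 0.0133).

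The 250 bases before the start of C1qa are shown because it is the one tested C1q gene with a match in them to the STAT-binding motif GAS, written here as TTCNNNGAA (letters in capitals). The stretch lies at chr5:154419934-154420183 on the minus strand of GRCr8, from RefSeq, and is given 5′ to 3′ on the strand of the gene.
C1qa: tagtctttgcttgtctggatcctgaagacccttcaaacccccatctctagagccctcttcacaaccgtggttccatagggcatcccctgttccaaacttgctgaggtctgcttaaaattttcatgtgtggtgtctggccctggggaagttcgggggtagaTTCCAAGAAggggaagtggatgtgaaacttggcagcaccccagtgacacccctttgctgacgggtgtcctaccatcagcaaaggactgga
The match starts 90 bases before the gene start. GAS was found in 8.87% of 33469 promoters searched on both strands, each of 250 bases before to 50 after the start. Among the 21 members with an entry it was present in 4 (C1qa, C8a, Vtn and C4bpb) and in none of the 6 called ones with an entry. ISRE, the interferon-response motif TTTCNNTTTC, and the NF-kB consensus were in 3.92% and 4.18% of all promoters and in none of the 21 members' windows. These counts describe letters in a window of the newer assembly and not binding.

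The lectin-branch proteases showed no called change, and their probes differed. Masp1 encodes a protease that cleaves C2 and helps activate Masp2. Its brightest probe measured 0.641, 0.822, 0.516 and 0.807 with APL, against 0.893, 0.735, 1.06 and 0.640 in Control. That probe had a log2 difference of -0.26 ± 0.25 (limma adjusted p = 0.491), while a second kept probe gave 2.75, which was not tested on its own, so the kept probes of Masp1 differ in sign. The remaining Masp1 probe gave 1.15, was above background on 3 APL arrays and no Control array, and did not pass the filter. With the mean of the kept probes, Masp1 had a log2 difference of 1.25 and was not called (limma adjusted p = 0.207). Masp2, which cleaves C4 and C2, measured 0.173, 0.343, 0.210 and 0.214 with APL, against 0.626, 0.512, 0.0554 and 0.311 in Control. Its log2 difference was -0.27 ± 0.73 (limma adjusted p = 0.817), and its second probe gave 0.04. The sign was positive without Control replicate 1 (0.135) or Control replicate 2 (0.04). Mbl2, one of the mannose-binding lectins, was above background on no array. In rats a further mannose-binding lectin is encoded by Mbl1, which belongs to the 27 other complement genes described below.

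Of the 4 genes of C3 and the alternative branch, 3 were higher with APL (75%, beside 11.9% of all genes tested). C3, the protein at which all branches meet, measured 7.37, 13.5, 19.5 and 6.93 with APL, against 0.345, 0.0963, 0.0181 and 1.80 in Control. The Control values ranged over 2 orders of magnitude, with replicate 3 lowest and not above background. The log2 difference was 5.89 ± 1.27 (limma adjusted p = 0.0136), and it was 4.78 to 7.0 when 1 array at a time was left out. Under normexp it was 4.13 with scaling to the 75th percentile and 4.16 with quantile scaling. Within slides it was 5.78 on slide 1 and 6.01 on slide 2, where the 2 arrays a group did not give a call (limma adjusted p = 0.264). Cfd encodes factor D, the serine protease that cleaves factor B and that is also produced by fat cells. It measured 1.06, 1.24, 1.29 and 0.781 with APL, against 0.0249, 0.0547, 0.0391 and 0.0167 in Control. The log2 difference was 5.13 ± 0.39 (limma adjusted p = 9.9e-05), with similar values within each group. Cfb encodes factor B, which forms the alternative C3 convertase with C3b, and is the gene next to C2 on chromosome 20. Its values were 0.697, 0.641, 2.40 and 1.11 with APL, against 0.160, 0.358, 0.226 and 0.243 in Control (log2 difference 2.14 ± 0.46, limma adjusted p = 0.0134). Cfp, encoding properdin, which stabilises that convertase, measured 0.102, 0.188, 0.0483 and 0.115 with APL, against 0.0990, 0.154, 0.0226 and 0.238 in Control. The ranges overlapped and it was not called (0.09 ± 0.74, limma adjusted p = 0.940), with a negative sign without APL replicate 2 (-0.20) or Control replicate 3 (-0.60).

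The 250 bases before the start of C3 are given as the promoter of the gene where the branches meet. They lie at chr9:2201340-2201589 on the minus strand of GRCr8, from RefSeq, 5′ to 3′ on the gene's strand and with no capitals because none of the 3 motifs was found.
C3: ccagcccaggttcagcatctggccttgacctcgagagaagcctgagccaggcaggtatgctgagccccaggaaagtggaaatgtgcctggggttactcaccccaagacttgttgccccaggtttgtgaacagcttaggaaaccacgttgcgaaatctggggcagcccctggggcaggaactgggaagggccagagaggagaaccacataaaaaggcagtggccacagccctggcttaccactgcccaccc

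**Figure D2:**
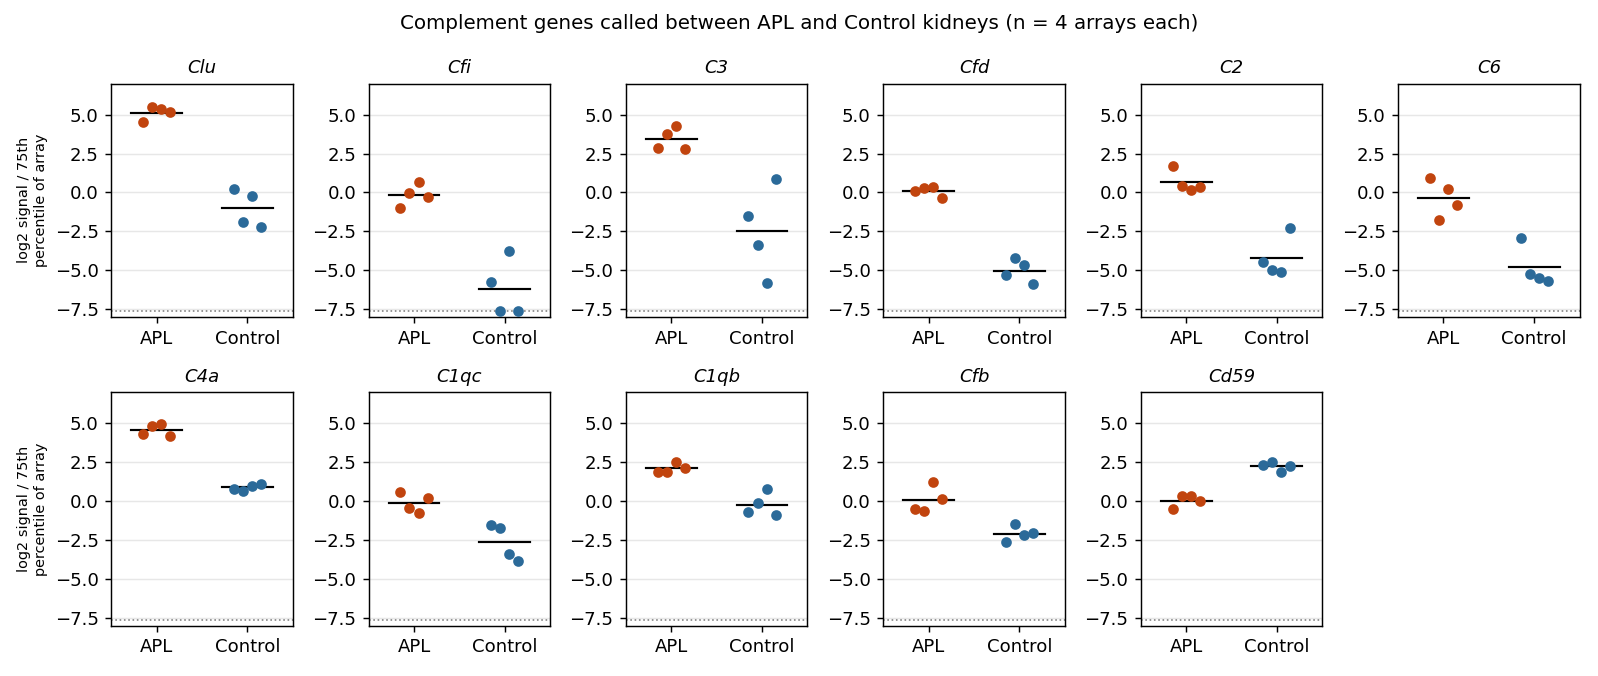
Log2 of the signal over the 75th percentile of the array (y axis) for each of the 11 called complement genes, with 1 point per array, APL left of Control, black lines at group means and a dotted line at the floor. The 4 APL points lie above the 4 Control points in 10 genes and below them in Cd59.

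Of the terminal pathway, 2 genes could be tested and 1 was higher, beside 11.9% of all genes tested. C6 encodes the component that joins C5b to start the membrane attack complex. Its relative signal was 1.91, 0.292, 1.15 and 0.574 with APL, against 0.134, 0.0269, 0.0220 and 0.0198 in Control. Control replicate 1 stood above the other Control values, though below every APL value, and the log2 difference was 4.46 ± 0.77 (limma adjusted p = 0.00519). C8b, a chain of C8, measured 0.111, 0.125, 0.0665 and 0.0634 with APL, against 0.140, 0.118, 0.427 and 0.0962 in Control. It had a log2 difference of -0.88 ± 0.49 and was not called (limma adjusted p = 0.233). C8a, another chain of C8 whose gene lies next to C8b, and C9, which polymerises into the pore, were above background on no array. Transcripts of C5, C7 and C8g were not measured here.

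Among the regulators, 2 of the 6 tested genes were higher and 1 was lower. These shares were 33.3% and 16.7%, beside 11.9% and 11.5% of all genes tested. Clu encodes clusterin, a secreted protein that binds the terminal complex and is also widely used as a marker of tubular injury. It measured 23.2, 44.2, 40.5 and 35.9 with APL, against 1.14, 0.272, 0.864 and 0.219 in Control. Its log2 difference, 6.15 ± 0.57 (limma adjusted p = 0.000254), was the largest of the 23 tested members with this processing. Cfi was above it in the authors' deposited log2 table (6.24 against 6.14), on slide 1 alone and without Control replicate 3, and C3 was above it without Control replicate 4 (7.0 against 5.76). Cfi encodes factor I, the protease that inactivates C3b and C4b. Its values were 0.508, 0.990, 1.63 and 0.818 with APL, against 0.0187, 0.00391, 0.0746 and 0.00388 in Control. It was above background on 2 of the 4 Control arrays and on all APL arrays. The log2 difference was 6.05 ± 0.87 (limma adjusted p = 0.00222), where values under 0.005 were raised to that floor, and it was 5.03 with a floor of 0.02.

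The 250 bases before the start of Cfi are shown because Cfi is one of the called regulators and has a promoter entry. They lie at chr2:221063066-221063315 on the plus strand of GRCr8, from RefSeq, 5′ to 3′.
Cfi: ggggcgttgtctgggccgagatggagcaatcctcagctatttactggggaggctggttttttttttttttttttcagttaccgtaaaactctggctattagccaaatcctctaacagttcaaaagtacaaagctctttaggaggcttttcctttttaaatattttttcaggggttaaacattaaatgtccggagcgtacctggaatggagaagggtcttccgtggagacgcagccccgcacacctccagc

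Cd59 encodes the membrane protein that blocks assembly of the attack complex on host cells and was the one member called lower. It measured 0.695, 1.25, 1.29 and 0.996 with APL, against 4.97, 5.74, 3.63 and 4.88 in Control. Every APL value was under the lowest Control value, and the log2 difference was -2.21 ± 0.27 (limma adjusted p = 0.00091). Serping1 encodes the C1 inhibitor. Its relative signal was 6.82, 9.88, 10.6 and 8.10 with APL, against 13.4, 10.3, 14.8 and 19.0 in Control, and the ranges overlapped. The log2 difference of -0.69 ± 0.26 was not called (limma adjusted p = 0.0906), and it was called lower when arrays were scaled to their median (-0.97, limma adjusted p = 0.0439). With no scaling between arrays it was -0.05 (limma adjusted p = 0.906). Cd55, which speeds the decay of convertases, measured 0.0152, 0.0803, 0.0448 and 0.0879 with APL, against 0.0380, 0.0169, 0.0586 and 0.0447 in Control. Its log2 difference was 0.38 ± 0.62 (limma adjusted p = 0.691), and its second probe gave 0.53. C4bpb, a chain of C4b-binding protein, measured 0.0184, 0.267, 0.0122 and 0.0653 with APL, against 0.0761, 0.0839, 0.00474 and 0.0302 in Control. The groups overlapped for both genes, and the C4bpb log2 difference was 0.51 ± 1.2 (limma adjusted p = 0.787), with a negative sign without APL replicate 2 (-0.36) or Control replicate 3 (-0.38).

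The other regulators did not pass the signal filter. C4bpa, the main chain of C4b-binding protein, was above background on 3 of 4 APL arrays and on no Control array. It measured 0.00204, 0.660, 0.261 and 0.0946 with APL, against 0.00342, 0.00377, 0.00671 and 0.00405 in Control. APL replicate 1 lay below every Control value, so the groups overlapped. The mean log2 APL signal was 5.93-fold above the lowest detected signal of the Control arrays. That mean holds the undetected APL replicate 1, raised to the floor, so the fold is not a strict lower bound. Without the filter the limma adjusted p of C4bpa was 0.0916. Cd46, a cofactor for factor I, was also above background on 3 APL arrays and no Control array. It measured 0.00583, 0.0363, 0.0995 and 0.0219 with APL, against 0.00592, 0.00686, 0.00339 and 0.0045 in Control, so the groups overlapped. The same fold was 1.63 for Cd46, again not a strict bound, and without the filter the limma adjusted p was 0.106. Vtn, encoding vitronectin, which binds the terminal complex, was above background on 1 Control array alone, at 0.0908.

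Neither of the 2 receptors was called. C3ar1, the receptor for the C3a fragment, measured 0.456, 0.0846, 0.0562 and 0.153 with APL, against 0.0943, 0.0719, 0.0480 and 0.0560 in Control. Only APL replicates 1 and 4 exceeded every Control value, and the log2 difference was 1.05 ± 0.62 (limma adjusted p = 0.256), or 0.46 without APL replicate 1. C5ar1, the receptor for C5a, measured 0.694, 0.450, 0.621 and 0.507 with APL, against 0.239, 0.700, 0.480 and 0.00364 in Control. The ranges overlapped, with Control replicate 4 not above background, and the log2 difference was 1.98 ± 1.43 (limma adjusted p = 0.350). Without Control replicate 4 it was 0.38.

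**Figure D3:**
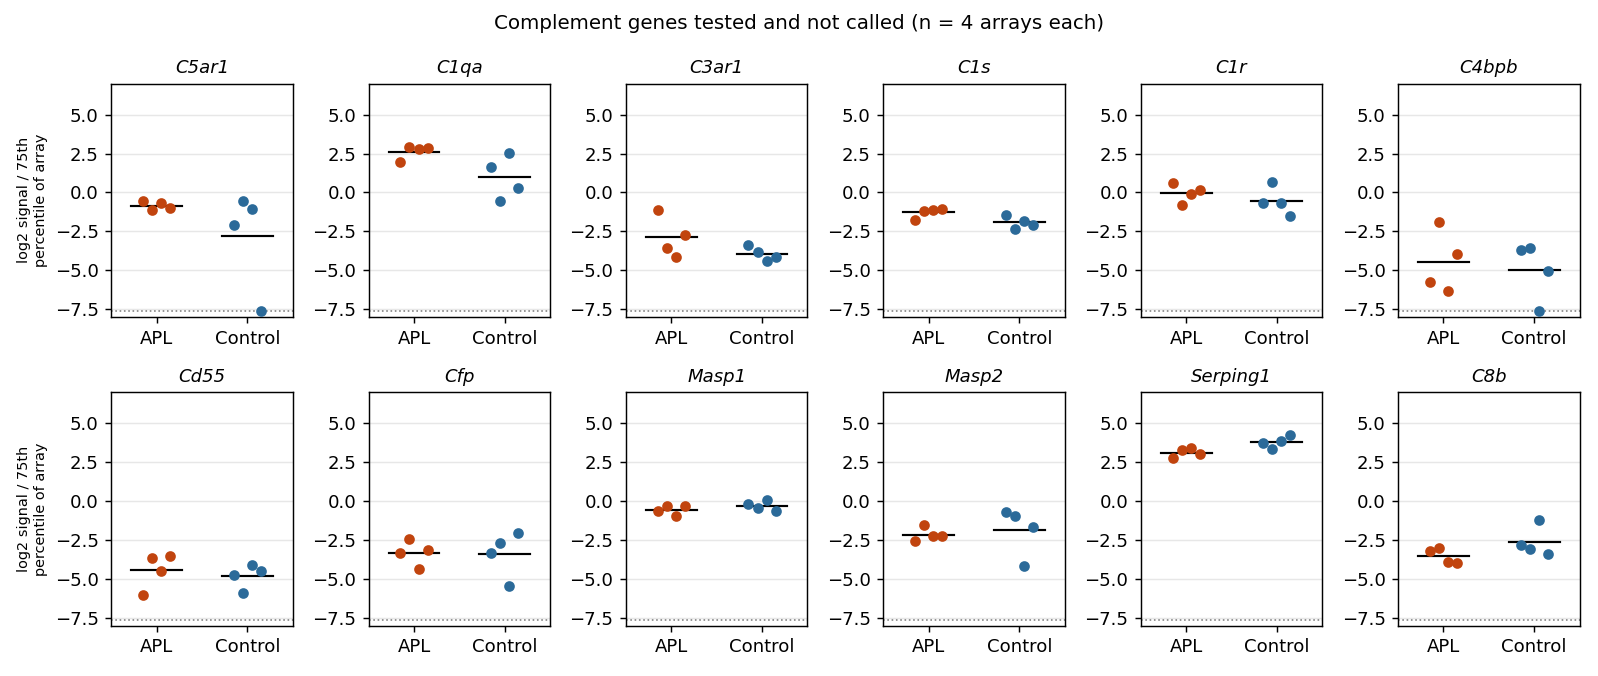
Log2 of the signal over the 75th percentile of the array (y axis) for the 12 tested complement genes that were not called, with 1 point per array, APL left of Control, black lines at group means and a dotted line at the floor. The groups overlap in each of the 12 genes.

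A list of 27 other complement genes (among them further lectins, receptors and pentraxins) gave 17 tested genes, of which 2 were higher, 2 were lower and 13 were not called. These calls covered 23.5% of the tested genes of the list, the same share as the 23.5% of all genes tested. The higher calls covered 11.8% beside 11.9% of all genes, and the lower calls 11.8% beside 11.5%. Mbl1 measured 0.00226, 0.00653, 0.00308 and 0.00345 with APL, none above background, against 0.415, 0.170, 0.474 and 0.133 in Control. All 4 Control arrays were above background, so Mbl1 passed the filter through the Control group alone. With the processing used, the fall was at least 25.4-fold (limma adjusted p = 0.000113). The call was lost with normexp correction scaled to the 75th percentile (limma adjusted p = 0.658). Across the settings with all arrays, the Mbl1 log2 difference ran from -6.19 to -0.58, so the bound does not hold for every setting. Colec12, a scavenger collectin, was higher at 2.79 ± 0.59 (limma adjusted p = 0.0130), with 1 Control array above background, and that call was lost under both normexp settings and a floor of 0.02. Cd93, a receptor first described as binding C1q, was lower at -3.5 ± 0.97 (limma adjusted p = 0.0348). Leaving out any 1 of 6 arrays (APL replicates 1 to 3, or Control replicates 1, 2 or 4) ended that call, with the limma adjusted p reaching 0.0833. It was also lost with normexp scaled to the 75th percentile, no signal filter, replicate numbers fitted as a block, or no scaling between arrays. Across the settings with all arrays, the Cd93 log2 difference ran from -3.72 to -0.108 and the limma adjusted p reached 0.909.

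Markers of cell types that carry complement genes moved in several ways. The counts below stand beside 11.9% higher and 11.5% lower over all genes tested. Of 12 tested macrophage markers, 6 were higher (Cd68, Cd14, Lyz2, Tyrobp, Fcer1g and Fcgr1a) and 1, Cx3cr1, was lower, with a second Fcgr1a probe at -0.42, while Adgre1 and Csf1r were not called. Their summed relative signal was 81.8 to 91.3 in the APL group and 75.8 to 87.6 in the Control group. Such sums weigh bright probes most, and Cx3cr1 alone gave 37.1 to 50.4 with APL and 60.5 to 68.4 in Control. Of 9 tested hepatocyte markers, 1 was higher (Hpx) and 3 were lower (Apoc3, Apoh and F2). Hpx was above background on the 4 APL arrays and no Control array, so the APL group alone carried it past the filter. The hepatocyte list summed to 1.57 to 1.81 with APL and 4.85 to 8.68 in Control, and Alb, Tat and F9 were above background on no array. Of 5 tested neutrophil markers, S100a8 and S100a9 were higher, while Csf3r, Cxcr2 and Camp were not called. S100a8 was above background on the 4 APL arrays and no Control array, so it passed the filter through the APL group alone. That list summed to 0.582 to 1.56 with APL and 0.0923 to 0.149 in Control, of which S100a8 gave 0.249 to 0.855 with APL. Of 5 tested adipocyte markers, 1 (Cidec) was lower. That list summed to 0.906 to 1.6 with APL and 4.92 to 9.62 in Control, of which Cidec alone gave 0.0587 to 0.564 with APL and 4.08 to 8.68 in Control, and Adipoq was not called (2.91 ± 1.15, limma adjusted p = 0.106). Proximal tubule markers summed to 28.6 to 40.9 with APL and 339.5 to 409.0 in Control, with 1 of 7 tested higher and 5 lower. Fibroblast markers had 2 of 6 tested higher (Col1a1 and Col3a1) and 1 lower (Pdgfra), and summed to 29.2 to 88.5 with APL and 13.6 to 16.6 in Control. Endothelial markers had 4 of 6 tested lower, with sums of 0.585 to 1.05 with APL and 3.75 to 8.06 in Control. Lymphocyte markers summed to 0.358 to 1.06 with APL and 0.426 to 1.1 in Control. The part of these cell types in the complement differences was not tested.

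The 10 higher members did not share 1 highest APL array. APL replicate 3 was the highest of the 4 in 6 of the 10 genes, replicate 1 in 3 and replicate 2 in 1. Control replicate 4 was the lowest of its group in 6. Among these is Cfi, where Control replicates 2 and 4 were both undetected and under the floor, so their order is not a measured difference. The size of the difference in several dim genes moved under the normexp settings, which start from spot medians, correct the background and add an offset of 50, so these steps cannot be told apart. With scaling to the 75th percentile, the log2 difference was 2.38 for Cfi, 2.38 for Cfd, 2.55 for C2, 2.26 for C6 and 1.56 for C1qc. With quantile scaling it was 2.01 for Cfi, 2.16 for Cfd, 2.38 for C2, 1.81 for C6, 1.26 for C1qc and 1.3 for Cfb, and limma called all of these genes under both settings. The plot of the alternative settings shows those sizes for each called member.

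**Figure D4:**
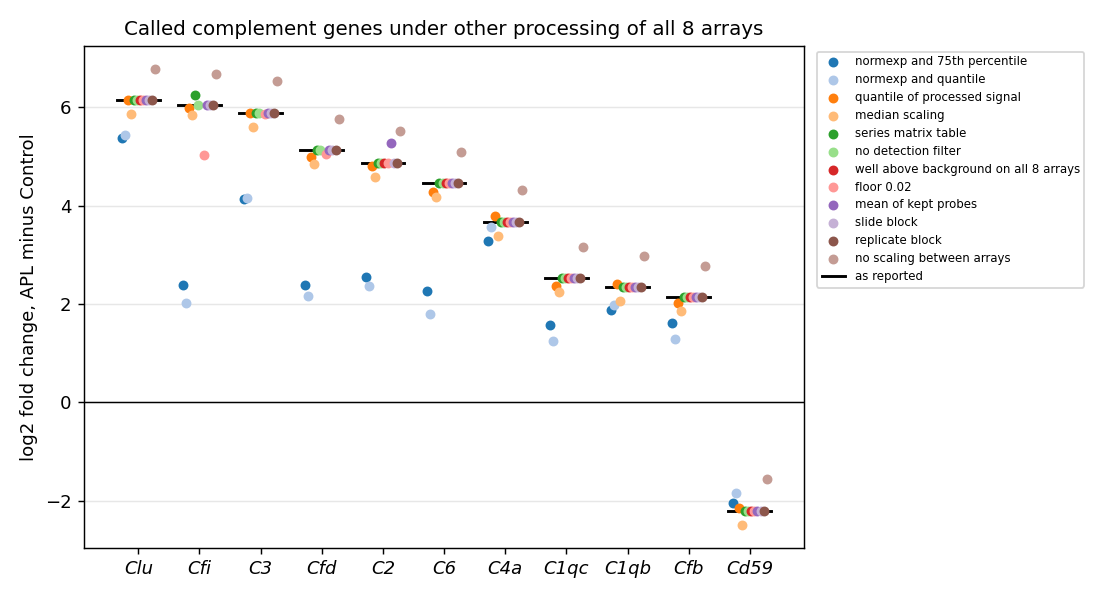
Log2 difference of APL over Control (y axis) for the 11 called complement genes under the settings with all arrays, with 1 mark per setting and a black line at the reported value. Values for Cfi, Cfd, C2 and C6 drop most under the normexp settings, and no gene changes sign.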

How the data were processed

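Total RNA of 8 kidney samples was hybridised to 1-colour Agilent arrays after Cy3 labelling, with a kit named as a DNA labelling kit in the labels. Per the file headers, the arrays were read with Agilent Feature Extraction 10.5.1.1, and the deposited scanner files hold linear intensity values, with a processed signal from which background and spatial trend had been removed. A table of the whole series deposited by the authors holds centred log2 values and served as an alternative. It tracks the rebuilt centred log2 values (its scale and direction are read from that), with column medians of -0.135 to 0.0190 for APL and 0.00539 to 0.0759 for Control. Non-uniform spots were dropped and repeated spots averaged. Scaling used each array's 75th percentile of processed signal, with a floor of 0.005 before log2. Probes well above background on at least 4 of 8 arrays (24339) were kept, the brightest kept probe stood for a gene, and 21416 features were tested with limma 3.58.1 in R 4.3.3 (Benjamini-Hochberg over all of them). Symbols came from a RefSeq table of assembly GRCr8 by accession without version, while the header names build rn4, so no probe coordinates are given. Cd59 was matched as Cd59b through a synonym. The members, the other lists and the rule for named genes (every member, and any other complement gene that was called, except 1 not reported here) were chosen with earlier results of these data known. For a probe that no array of 1 group detected, a fold is a lower bound with the processing used. It was taken against the lowest detected signal of each array or the dim probe itself, whichever was higher. It is not a strict bound where the other group also held an undetected array, as for C4bpa and Cd46. The fit was tested on simulated data. Normexp used the spot and background medians with an offset of 50. Precision is limited by having 4 arrays a group. The replicate numbers did not pair the samples (correlations of deviations of -0.016 to 0.048).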

Additional observations from a re-analysis of the deposited data

Results flagged for a closer look

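In 7 of 80 groups of 4 arrays, 1 array stood far from the other 3 by Dixon's test, which chance does in about 1 in 20 groups. The log2 relative signal is given for each. Among the members, C1qa was 1.95 in APL replicate 1, against 2.78 to 2.91 in the other APL replicates. C2 was 1.71 in APL replicate 1, against 0.19 to 0.42. C6 was -2.90 in Control replicate 1, against -5.66 to -5.22 in the other Control replicates. Among the other complement genes, Mbl1 was -7.26 in APL replicate 2, where the other 3 APL values were at the floor and no APL array was above background, so this is not a measured difference. Susd4 was -3.04 in APL replicate 3. C1rl was -0.86 in Control replicate 2 and Apcs was -5.95 in Control replicate 4.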

How the results depend on the processing

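Of the tested members, 10 were higher and 1 was lower with all arrays. Leaving out 1 array at a time gave 9 to 11 higher, detection on all 8 arrays gave 7, and no scaling gave 12. Slide 1 alone gave 6 higher and 0 lower, and slide 2 alone gave 4 and 0. Median scaling gave 2 lower. With the replicate block, 9 were higher and 1 lower, and C3 missed the threshold (limma adjusted p = 0.0505). The members' median log2 difference of 1.63 was 0.86 and 0.52 with normexp (75th percentile, quantile), 1.35 with median scaling, 1.05 with no filter and with detection on all 8 arrays, 1.48 with a floor of 0.02, 1.25 and 1.39 on slides 1 and 2, 2.27 without scaling (added after seeing the data), and 0.97 to 2.12 leaving out 1 array. Of the other complement genes, 2 higher became 1 with either normexp, detection on all 8 arrays or a floor of 0.02, 0 on either slide and 5 without scaling. Their 2 lower became 0 under normexp scaled to the 75th percentile, detection on all 8 arrays or slide 2, 1 with no filter, the replicate block or no scaling, 3 with quantile or median scaling or the mean of kept probes, and 1 to 2 leaving out 1 array. The causes were not tested. Of all genes, 2554 were higher and 2472 lower, against 1040 and 973 under normexp scaled to the 75th percentile, 1739 and 3849 with median scaling, 5871 and 1142 without scaling, 509 and 513 on slide 1, 379 and 279 on slide 2, 1642 and 1616 with the block, 1623 and 1950 without APL replicate 2, and 1606 and 1777 without APL replicate 4. No result reversed in direction where it was called. With 4 arrays a group and signals near background, small differences in dim genes could not be resolved.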
